A study of Homo sapiens with 4 samples.

Results

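V(D)J recombination is the cut-and-paste reaction by which developing lymphocytes assemble the variable regions of their antigen receptor genes. The RAG1/RAG2 recombinase cuts the DNA beside the gene segments, and terminal deoxynucleotidyl transferase (TdT, encoded by DNTT) adds nucleotides at the junctions without a template. The broken ends are then held, opened and sealed by non-homologous end joining, a repair pathway that works in nearly every cell. RAG1, RAG2 and TdT are confined largely to immature lymphocytes, of which the pre-B cell is one.

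The genes described here were 10 named members of this reaction, each measured by every array probe whose RefSeq accession belonged to it. They were RAG1, RAG2 and DNTT, the end-binding and end-processing genes XRCC6, XRCC5, PRKDC and DCLRE1C, and the ligation genes XRCC4, LIG4 and NHEJ1. Together they had 16 probes of the 41000 on the array and were 10 of the 18203 genes that could be named. Of the 16 probes, 14 were well above background on all 4 arrays and 1 was so on none.

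The arrays measured the mRNA of Nalm-6, an established human pre-B leukemia cell line, in 4 cultures. WT was the unmodified line. In Arp5 KO cells both alleles of the Arp5 gene (ACTR5) had been disrupted by gene targeting, and Arp8 KO cells lacked Arp8 (ACTR8), with 1 established line of each. Both proteins are actin-related subunits of the INO80 chromatin remodeling complex, and the study asked what they contribute to transcription under oxidative stress. It reported slightly slower growth of Arp5 KO cells than of WT and cited earlier work in which conditional knockout of Arp8 was lethal. Whether the Arp8 KO culture was of that conditional kind is not stated there. The Arp8 OE culture was labelled as overexpressing Arp8, with no construct named in the sources used here. The titles and the treatment protocol stated 20 uM heme, an oxidative stress inducer, for 12 hours in all 4 cultures. The treatment field, however, listed both knockouts as without heme, and the source field listed only Arp5 KO so, and treatment and genotype therefore cannot be told apart where the fields disagree. Each genotype was represented by 1 culture on 1 array, so no comparison has a replicate, and fewer mRNA copies per cell cannot be separated from fewer expressing cells.

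The labels were checked first on their target genes. The ACTR5 probe was lower in Arp5 KO than in WT by a log2 difference of -4.27. The ACTR8 probes differed by -0.53 and -0.68 in Arp8 KO. In the culture labelled Arp8 OE they differed by 0.02 and -0.01, so a higher ACTR8 level was not seen there, and Arp8 OE below stands for the culture so labelled, whatever its ACTR8 level. Where ACTR8 was targeted relative to the probes is not given in the sources used here. The heme-inducible gene HMOX1 was lower than in WT by log2 differences of -2.98 (Arp5 KO), -2.91 (Arp8 KO) and, in the Arp8 OE culture, -2.05.

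Levels are given as the log2 of a probe's signal over the 75th percentile of its array, so a probe at 0 sits at that percentile. Where 4 levels stand in a row without names, they follow the order WT, Arp5 KO, Arp8 KO, Arp8 OE, and rows of 3 differences from WT keep that order without WT. A difference of 1 is 2-fold, which is the threshold for a call. Probes bind with different efficiency, so levels are compared between arrays and never between probes. The scanner software's error model gave each level of a bright probe an error of 0.14 (1 SD), hence 0.20 for a difference of 2 arrays. Probes printed 10 times on each array gave a smaller value, 0.08 for a difference. Both are technical errors of the measurement and hold nothing of the variation between cultures.

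DNTT was higher than WT in all 3 other cultures, most of all in Arp8 KO. RAG1 was also higher than WT in all 3 on both of its probes, whereas RAG2, its partner in the recombinase, was not. The 7 end-joining genes stayed within 1.5-fold of WT on each probe well above background on both arrays compared. The widest differences from WT in the whole set thus lay in DNTT and RAG1. RAG2, also lymphocyte-restricted, differed by -0.49 in Arp8 KO, which the end-joining gene XRCC4 exceeded in size there (-0.53).

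**Figure D1:**
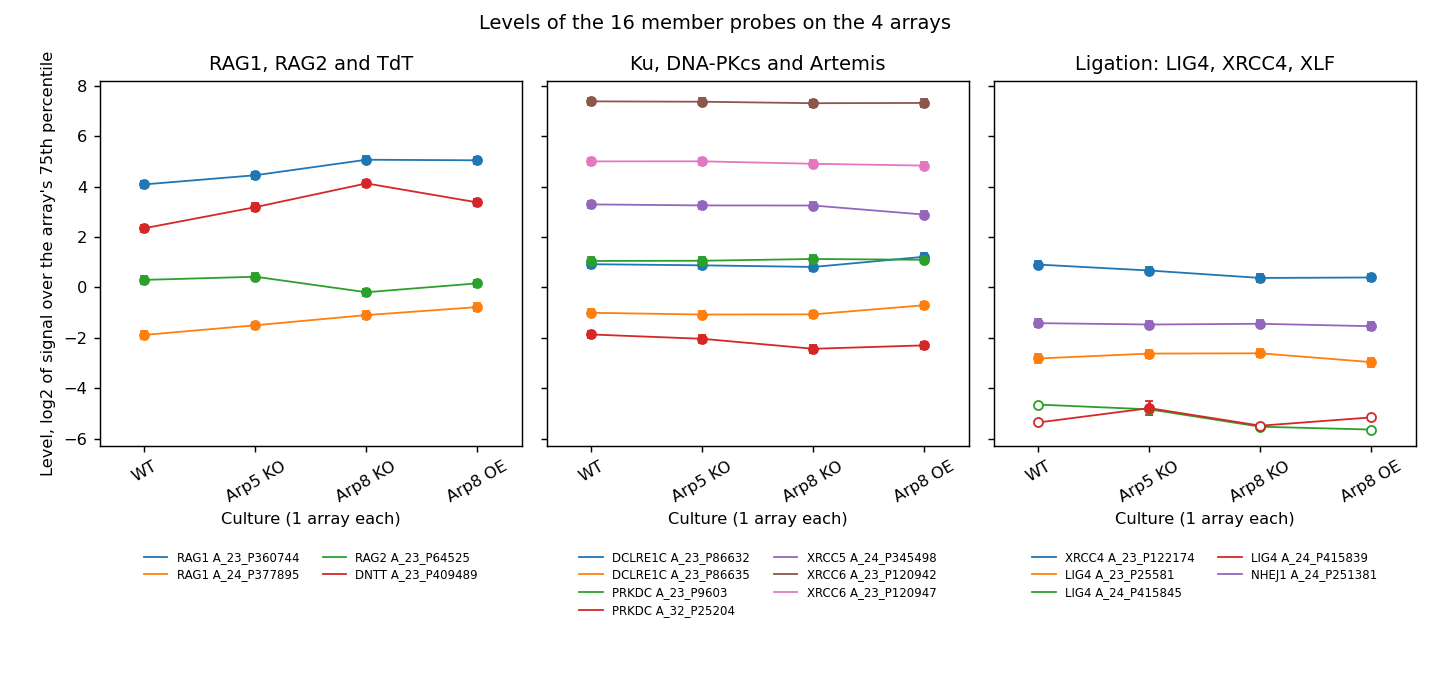
Level of each of the 16 member probes (vertical axis, log2 of signal over the array's 75th percentile) in the 4 cultures (1 array each). Bars are the error model's 1 SD, and open symbols are probes not well above background. The DNTT line climbs from 2.35 in WT to 4.12 in Arp8 KO, both RAG1 lines lie lowest in WT, and the lines of end-joining probes measured on all arrays vary by at most 0.57.

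The sequence upstream of a gene holds the sites its regulators read, and the 250 bases before the annotated start of DNTT and of RAG2 are shown. In Arp8 KO these genes of the same reaction differed from WT in opposite directions, RAG2 by only -0.49 on 1 probe. The part of these sequences in those differences was not tested. Both are RefSeq sequences on GRCh38.p14, read along the gene's strand with the start just past the last base. Capitals mark matches to 10 short motifs searched on both strands, of which the E-box (CANNTG), the site of E2A and related factors, and CCAAT were found here. The DNTT window is chr10:96304184-96304433 on the plus strand, and the RAG2 window is chr11:36598237-36598486 on the minus strand.
DNTT: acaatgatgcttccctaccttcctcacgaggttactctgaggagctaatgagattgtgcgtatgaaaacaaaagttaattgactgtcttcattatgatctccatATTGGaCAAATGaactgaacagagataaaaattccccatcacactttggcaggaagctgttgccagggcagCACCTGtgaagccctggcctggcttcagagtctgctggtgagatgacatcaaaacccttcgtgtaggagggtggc
RAG2: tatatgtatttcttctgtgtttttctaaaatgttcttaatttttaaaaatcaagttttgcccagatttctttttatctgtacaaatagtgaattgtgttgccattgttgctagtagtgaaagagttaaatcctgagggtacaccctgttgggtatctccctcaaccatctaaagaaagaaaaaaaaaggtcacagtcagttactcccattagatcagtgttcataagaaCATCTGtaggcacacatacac

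The DNTT window held E-boxes that begin 140 and 75 bases upstream of the start, the nearer of which is the variant CAGGTG on the opposite strand, and a CCAAT match 146 bases upstream. The RAG2 window held 1 E-box, 21 bases upstream, and lies inside the annotated span of the oppositely oriented gene IFTAP. For RAG1 the annotated window overlaps the neighbouring gene TRAF6 and is not printed. It held the E-box variant CAGCTG 115 bases upstream and a GC box (GGGCGG) 134 bases upstream. Guanine and cytosine made up 46.4% of the DNTT window, 70% of the RAG1 window and 34% of the RAG2 window, against a median of 58% over 35116 human promoter windows. An E-box occurred in 61.8% of all those windows, CAGGTG in 17.5%, CAGCTG in 14.0%, GGGCGG in 42.6% and CCAAT in 32.0%. These are letter matches and not measured sites, and which start these cells use was not measured. The other motifs searched were the TATA box (TATAAA), an ETS site (CCGGAA), an Ikaros site (TGGGAA), a FOXO site (TGTTTAC) and the antioxidant response element (TGACNNNGC), none of which occurred in the 3 windows. Windows were available for 8 of the 10 members, and PRKDC and XRCC5 are named only.

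DNTT was measured by 1 probe. Its level was 2.35 in WT, 4.12 in Arp8 KO, 3.37 in Arp8 OE and 3.18 in Arp5 KO, from signals of 3738, 11427, 6692 and 6713 units respectively. WT was thus the lowest array and Arp8 KO the highest, with the other cultures between. Against WT the difference was 1.78 in Arp8 KO (3.43-fold), 1.02 in Arp8 OE (2.03-fold) and 0.84 in Arp5 KO (1.78-fold), each with an error of 0.20. All 3 differences exceeded that error, and the one in Arp8 OE stood almost on the 2-fold line. It was 0.99 when arrays were scaled to their median and 0.98 with another background correction, so its call depended on the processing. Among all tested probes, 0.716% were as high or higher against WT in Arp8 KO, 2.84% in Arp8 OE and 2.22% in Arp5 KO. Arp8 KO exceeded Arp5 KO by 0.94 and Arp8 OE by 0.75, whereas Arp5 KO and Arp8 OE differed by -0.19, which lay within the error.

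RAG1, the catalytic subunit that cuts the DNA, was measured by 2 probes. On the first probe (A_23_P360744) the level was 4.08 in WT, 5.06 in Arp8 KO, 5.04 in Arp8 OE and 4.45 in Arp5 KO. The second probe (A_24_P377895) read -1.89, -1.10, -0.78 and -1.50 on the same arrays in that order. WT was lowest and Arp5 KO next lowest on both. Against WT the first probe differed by 0.98 in Arp8 KO, 0.96 in Arp8 OE and 0.36 in Arp5 KO, and the second by 0.79, 1.10 and 0.38, with errors of 0.20 to 0.21. The probes gave like sizes in Arp5 KO. Among all tested probes, 3.56% were as high or higher than the first probe in Arp8 KO, 3.33% in Arp8 OE and 9.10% in Arp5 KO. For the second probe these shares were 5.76%, 2.49% and 8.32%. Of the cultures above WT, Arp8 OE was the highest on the second probe, where Arp8 KO lay below it by a log2 difference of -0.32. On the first probe the same difference was 0.02, within the error, so the order of these cultures was not settled. Arp5 KO lay below Arp8 OE by -0.59 and -0.72. The second probe's difference in Arp8 OE, the only RAG1 value past 2-fold, was 0.83 under the other background correction, while the first probe's difference in Arp8 KO became 1.01.

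RAG2, the partner subunit that RAG1 needs for cutting, had 1 probe. Its level was 0.30 in WT, -0.19 in Arp8 KO, 0.16 in Arp8 OE and 0.42 in Arp5 KO. Arp8 KO was the lowest array, opposite to RAG1 and DNTT, which were higher than WT there. Against WT, RAG2 differed by -0.49 in Arp8 KO with an error of 0.20, while the Arp5 KO value of 0.12 and the Arp8 OE value of -0.14 lay within it. Arp8 KO lay below Arp5 KO by -0.61 and below Arp8 OE by -0.35. A spot next to the RAG2 probe was bright on the Arp8 KO array alone, and its part in the RAG2 value was not tested. Such a spot lay beside 5 of the 16 member probes and beside 12.7% of all probes. Of all tested probes, 14.4% were as low or lower against WT in Arp8 KO.

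**Figure D2:**
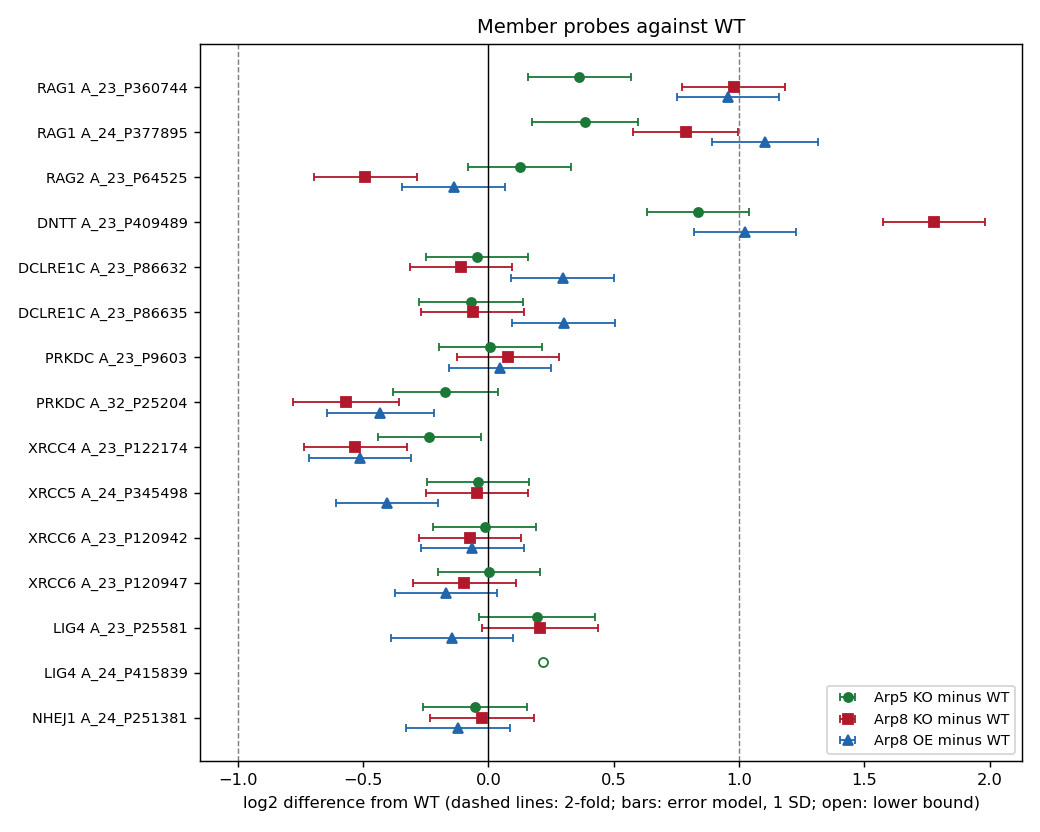
Log2 difference from WT (horizontal axis) of each measured member probe, with circles for Arp5 KO, squares for Arp8 KO and triangles for Arp8 OE, with the error model's 1 SD as bars, dashed lines at 2-fold and an open symbol for a lower bound. DNTT in Arp8 KO, at 1.78, stands apart to the right, RAG1 follows near the 2-fold line, and RAG2 and the end-joining probes sit on both sides of 0.

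Ku, the ring of Ku70 (XRCC6) and Ku80 (XRCC5) that first grips a broken end, differed little between the cultures, apart from XRCC5 in Arp8 OE. The first XRCC6 probe (A_23_P120942) read 7.38, 7.36, 7.30 and 7.31 and the other (A_23_P120947) 5.0, 5.0, 4.90 and 4.83, and all 6 differences from WT were between -0.17 and 0.00, within the error. The first gave a signal of 122274 units in WT without saturating the scanner. XRCC5 read 3.29, 3.25, 3.25 and 2.89, so Arp8 OE was the one array apart, lower than WT by a log2 difference of -0.40. Among all tested probes, 11.8% were as low or lower against WT in Arp8 OE. The difference between the subunits in that culture was not tested.

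PRKDC encodes DNA-PKcs, the kinase that Ku recruits, and its probes disagreed. One (A_23_P9603) read 1.05, 1.06, 1.13 and 1.09, with differences from WT of 0.01, 0.08 and 0.05 that lay within the error. The other (A_32_P25204) read -1.87, -2.04, -2.44 and -2.30, lower in both Arp8 cultures, by -0.57 with Arp8 KO and -0.43 with Arp8 OE. No direction is given for PRKDC for that reason. DCLRE1C encodes Artemis, the nuclease that opens the hairpin ends left by RAG cutting. Its probes read 0.92, 0.87, 0.81 and 1.21 and -1.01, -1.08, -1.07 and -0.71, highest in Arp8 OE on both. They differed from WT by 0.30 each in Arp8 OE, above the error of 0.20 to 0.21, and by -0.11 to -0.04 in the knockouts, within it. Among all tested probes, 19.9% and 19.6% were as high or higher in Arp8 OE.

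XRCC4, the scaffold of the ligase, was lower than WT in all 3 other cultures, though in Arp5 KO by barely more than the error. It read 0.90, 0.67, 0.37 and 0.39, highest in WT. The differences from WT were -0.23, -0.53 and -0.51 with an error of 0.20, and Arp8 KO and Arp8 OE could not be told apart (-0.02). Among all tested probes, 17.4%, 13.0% and 7.52% were as low or lower against WT. DNA ligase IV (LIG4), which seals the break, had 3 probes of which only A_23_P25581 was well above background throughout. That probe read -2.82, -2.63, -2.62 and -2.96, and its differences of 0.19, 0.21 and -0.14 were within its error of 0.23 to 0.24. Probe A_24_P415839 was well above background in Arp5 KO alone, which gives at least 1.16-fold over WT. That bound, a log2 difference of 0.22, lay within the error of 0.28 of the Arp5 KO level itself. Probe A_24_P415845 was well above background on no array. NHEJ1 encodes XLF, the XRCC4-like filament partner, and read -1.42, -1.47, -1.45 and -1.54, with every difference from WT within the error.

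Counted against the 2-fold threshold, 0 of the 15 member probes tested were past it in Arp5 KO against WT, where 3.7% of all tested probes were. In Arp8 KO 1 of 14 was past it, DNTT, against 7.71% of all probes in either direction and 3.37% higher. In Arp8 OE 2 of 14 were past it, DNTT and the second RAG1 probe, against 5.11% in either direction and 2.96% higher. Between the mutants, 0 of 15 were past 2-fold for Arp8 KO against Arp5 KO (5.71% of all probes), 0 of 14 for Arp8 KO against Arp8 OE (5.43%) and 0 of 15 for Arp5 KO against Arp8 OE (5.36%). One LIG4 probe enters the counts of 15 as a bound, so its true difference may be larger than counted. The counts are too small to set against these shares. The 3 comparisons with WT share the WT array, so a deviation of that array would enter all of them.

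The median difference over the member probes was near 0 in each comparison with WT, at 0.0016, -0.053 and -0.092, beside 0.0042, 0.026 and 0.0002 over all tested probes. The 7 end-joining genes spanned -0.57 to 0.21 in Arp8 KO, -0.51 to 0.30 in Arp8 OE and -0.23 to 0.22 in Arp5 KO. The last upper end, 0.22, was the LIG4 bound, and the highest value measured on both arrays was 0.19, also of LIG4. None of their probes well above background on both arrays passed 1.5-fold against WT. At this lower threshold, 3 of 14 member probes were past it in Arp8 KO against WT (21.3% of all tested probes), 3 of 14 in Arp8 OE (13.6%) and 1 of 15 in Arp5 KO (8.84%). Between the mutants, 3 of 15 were past it for Arp8 KO against Arp5 KO (14.7%), 1 of 14 for Arp8 KO against Arp8 OE (16%) and 2 of 15 for Arp5 KO against Arp8 OE (13.4%). The member share in Arp8 KO was thus that of all probes. Over the 4 arrays, the range from lowest to highest level exceeded 1 for 2 of the 14 member probes well above background on all (14.3%) and for 8.98% of the 21790 such probes on the array. The median range was 0.40 for the members, 0.36 for the end-joining genes and 0.42 for all.

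**Figure D3:**
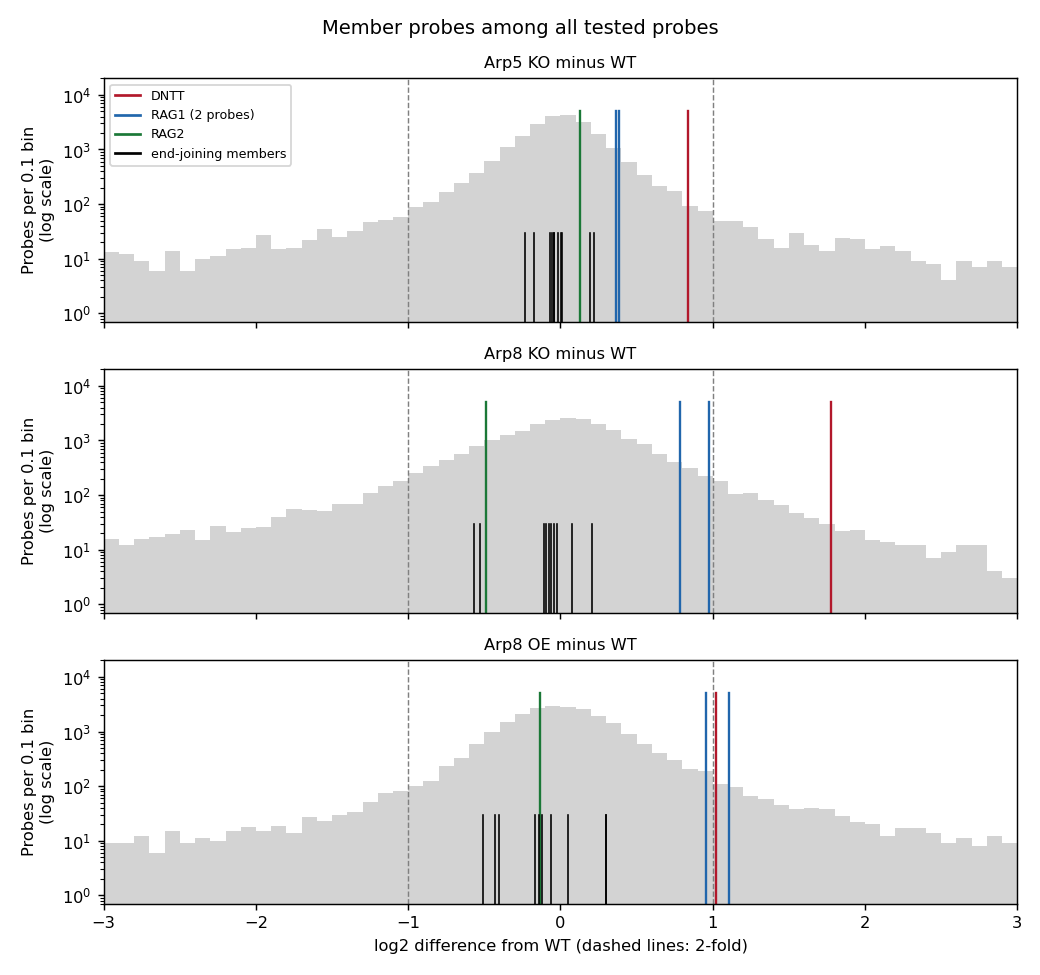
Number of tested probes per 0.1 of log2 difference from WT (grey, vertical log scale), 1 panel per mutant culture, with member probes as vertical lines and dashed lines at 2-fold (probes beyond 3 in either direction are not drawn). DNTT, at 0.84, 1.78 and 1.02, lies in the upper flank in each panel, while the end-joining members lie in the central mass between -0.57 and 0.30.

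The genes around these members were described by 5 related lists. Accessory factors of end joining, such as the polymerases and end-cleaning enzymes, comprised 14 genes with 20 probes. None was past 2-fold in Arp5 KO, and ERCC6L2 alone was so in both Arp8 cultures. ERCC6L2, a helicase-like protein that takes part in end joining in lymphocytes, read -1.84, -1.99, -2.91 and -3.29. It was thus lower than WT by log2 differences of -1.07 and -1.44 in the Arp8 cultures and by -0.15, within the error, in Arp5 KO. RAG1, by contrast, was higher in both of these cultures. The sensors and signalling proteins of DNA breaks, such as ATM and the MRE11 complex (14 genes, 25 probes), and the alternative end-joining pathway (8 genes, 10 probes) had no value past 2-fold against WT in any culture. In both knockouts, 1 probe of the latter list and 1 of the accessory factors gave a lower bound only. The values lay between -0.61 and 0.51 and between -0.74 and 0.25.

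Transcription factors and RNA-binding proteins known to act on RAG and TdT expression comprised 15 genes with 29 probes. Their median differences from WT were 0.072, 0.078 and 0.13. The probes past 2-fold against WT all belonged to GFI1B, a repressor of the RAG genes, which is named here after its values were seen. One GFI1B probe (A_23_P216845) was not well above background in WT or Arp8 OE and gave log2 differences from WT of at least 1.60 in Arp5 KO and 1.76 in Arp8 KO. The other (A_23_P343303) was well above background in Arp8 KO alone, at least 2.57 over WT. A neighbouring spot was bright on 1 array alone beside each of them, on Arp5 KO for the first probe and on Arp8 KO for the second, and its part in these values was not tested. The GFI1B value without such a neighbour was that of the first probe in Arp8 KO. The relation of GFI1B to the RAG values was not tested. None of the 26 probes of this list tested in Arp8 OE was past 2-fold against WT there, where 5.11% of all tested probes were. The list is too small to set against that share. For Arp8 KO against Arp5 KO, 1 of the 28 probes tested was higher past 2-fold and 2 were lower. The share of all tested probes past it was 5.71% in either direction. Those lower were both ZFP36L1 probes (-1.17 and -1.02), likewise named after their values were seen.

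The RAG genes lie on chromosome 11 in the RefSeq order COMMD9, PRR5L, TRAF6, RAG1, RAG2, IFTAP, and the 4 neighbours are likewise named after their values were seen. TRAF6 differed from WT by -0.23, -0.38 and -0.37 on one probe and by 0.02, 0.25 and 0.07 on the other, so its probes disagreed. COMMD9 differed by 0.05, -0.42 and -0.08. IFTAP was well above background in Arp5 KO alone, at least 0.33 over WT with an error of 0.30 on the Arp5 KO level, and both PRR5L probes were so on no array. No TRAF6 or COMMD9 probe was past 2-fold against WT, and the IFTAP bound does not settle it for that gene.

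**Figure D4:**
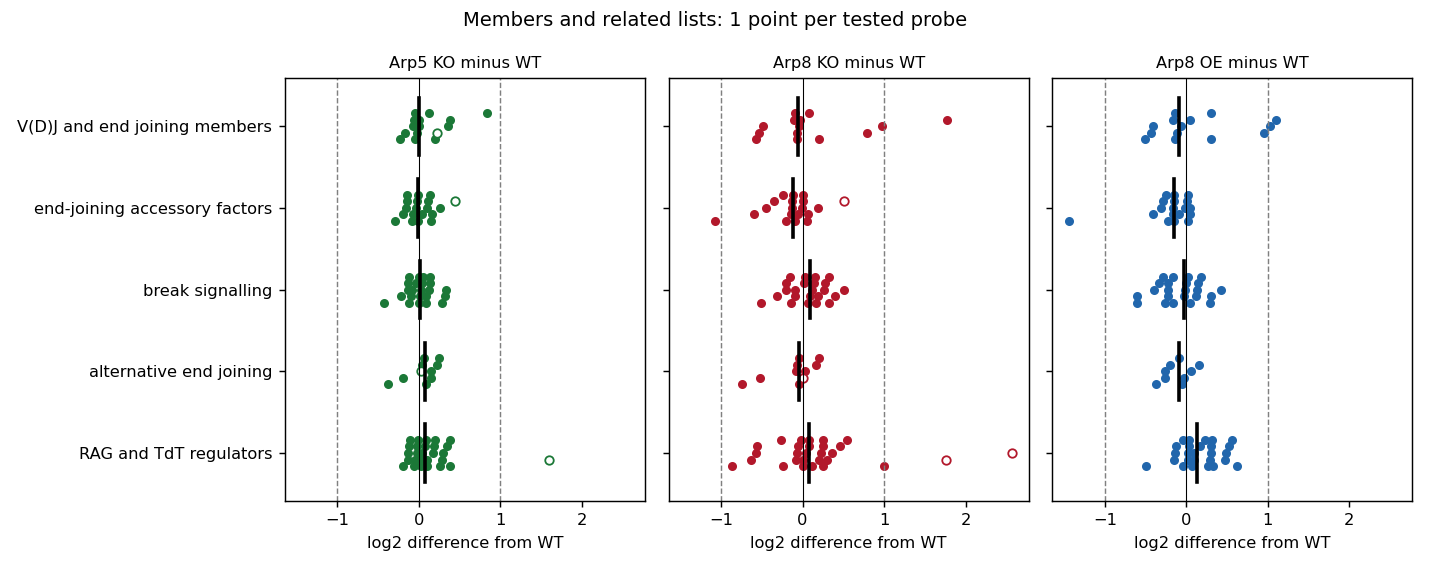
Log2 difference from WT (horizontal axis) of each tested probe of the 10 members and of 4 related lists, 1 panel per mutant culture and 1 point per probe, with black bars at list medians, dashed lines at 2-fold and open symbols for lower bounds. Most points lie within 2-fold. The exceptions to the right are DNTT and RAG1 among the members and GFI1B among the regulators, and ERCC6L2 lies to the left at -1.07 and -1.44.

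The probes whose 4 levels, after centring, were most like a member's were listed for the members past 2-fold, over 16580 probes with a gene name. Likeness was the root mean square distance over the 4 arrays. For DNTT they were OSM, a cytokine (0.079), TP53INP1, a p53-inducible gene (0.10), and CRTAP, a collagen-modifying cofactor (0.10). OSM differed from WT by 0.91, 1.66 and 1.10. For the second RAG1 probe they were HK2, a hexokinase (0.033), IFT140, a component of cilia (0.040), and KLHL24, an adaptor of a ubiquitin ligase (0.043). HK2 differed from WT by 0.30, 0.75 and 1.03. With 4 points, close matches are found for many probes, and the list is a description of pattern alone.

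The identity of the cells was read from 4 marker lists. All 16 probes of 12 B-cell precursor genes were well above background on every array. Of the T-cell, myeloid and erythroid probes, 5 of 7, 2 of 5 and 5 of 6 were so on no array, and only CD14, a monocyte marker, was so on all. Of the 16 precursor probes, 1, 3 and 0 were past 2-fold, all lower than WT, with list medians of -0.029, -0.16 and 0.12. Over all tested probes, 488 of 24285, 1068 of 24578 and 520 of 24177 were lower past 2-fold, in the same order. VPREB1, of the surrogate light chain of the pre-B receptor, differed from WT by -0.42, -1.26 and 0.00, and its relative VPREB3 by -1.21, -2.39 and 0.31. CD22, an inhibitory co-receptor, differed by -0.89, -2.58 and -0.73. The adaptor BLNK had the highest value of the list in both knockouts, with differences of 0.62, 0.31 and 0.05. The part of these differences in the DNTT and RAG values was not tested.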

How the data were processed

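Cy3-labelled cRNA of 4 Nalm-6 cultures was read on one-colour Agilent arrays, 1 per culture. The deposited files hold the spot intensity that Agilent Feature Extraction 10.10.1.1 gave per the file headers, background-subtracted and detrended but not normalized between arrays. The authors' value table held the same intensity times 1 factor per array (1.99 to 2.29). Here, intensities were divided by the array's 75th percentile (647 to 740 units) and log2-transformed. Control and outlier spots were left out, and spots of a probe were averaged. For each pair of arrays, the probes tested were those that the scanner software marked well above background on either, with a dim partner raised to the lowest well-measured signal. Between 55.9% and 57.4% of probes were well above background per array, and no spot was saturated. With 1 array per group no p-value exists, so the count of probes past 2-fold was given beside that of all probes. Symbols came from RefSeq accessions (27210 probes, 66.4%). Python 3.11.15 and, for normexp, limma 3.58.1 were used, and the scripts were tested on simulated data. All members were named on every probe, and genes of the related lists where a probe well above background on both arrays was past 2-fold against WT. GFI1B, ZFP36L1 and the RAG neighbours fell outside this. The members and lists were chosen with earlier results of these data known.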

Additional observations from a re-analysis of the deposited data

How the results depend on the processing

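Under the other settings tried, 681 values were recomputed. A reversal was looked for only in the 3 single member values past 2-fold, and none of them changed sign. A median near 0 could change sign and still count as alike. That for Arp5 KO against WT went from 0.0016 to -0.0097 with quantile normalization. Of 102 counts and medians, 94 stayed alike and 8 moved. At a 1.5-fold threshold the member probes past it numbered 1 for Arp5 KO against WT (8.84% of all tested probes), 3 for Arp8 KO against WT (21.3%), 3 for Arp8 OE against WT (13.6%), 3 for Arp8 KO against Arp5 KO (14.7%), 1 for Arp8 KO against Arp8 OE (16%) and 2 for Arp5 KO against Arp8 OE (13.4%). With normexp background correction they numbered 2 for Arp8 KO against WT, as RAG1 reached 1.01, and 0 for Arp8 OE against WT. Scaling to the array median left 1 in Arp8 OE against WT. Of 579 values of single member probes 18 moved. The largest shift was 0.27 with normexp, 0.18 with quantile normalization, 0.064 with median scaling and 0.35 without the floor on dim probes. Many of the 579 could not move. Settings that only drop probes gave 84 and 60 of them, with a shift of 0. Another 87 came from the authors' value table, the same intensities times 1 factor per array (largest shift 0.0018). Of the 3 member values past 2-fold, DNTT in Arp8 KO against WT alone stayed past it under every setting that kept this threshold (1.71 to 1.79). No paired analysis was possible because each group had 1 array, and for the same reason no replicate could be left out. Signal over background limits LIG4, whose dimmer probes give at most a bound.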
